A study of Phyllostachys violascens with 6 samples.

Results

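Phenylalanine ammonia-lyase (PAL), cinnamate 4-hydroxylase (C4H) and 4-coumarate-CoA ligase (4CL) catalyze the entry steps of phenylpropanoid metabolism. Unigenes are groups of assembled transcripts, and those described here were taken by their identifiers from the pathway genes listed by the study: PvPAL1 (Cluster-4806.23860), PvPAL2 (Cluster-4806.23845), PvPAL3 (Cluster-4806.23685), C4H (Cluster-4806.38638) and 4CL (Cluster-4806.43335). They were 5 of 63776 unigenes in the table. RNA came from the yellow culm (3 libraries) and from the green sulcus, the groove of the internode (3 libraries), of the longest internodes of *Phyllostachys violascens* cv. Viridisulcata, a bamboo whose genotype is labelled wild type. The study names 3 biological replicates, and the labels do not say what a culm and a sulcus library with the same number share. The tissue colors follow the labels and the paper's abstract, while a passage of its results words them the other way. The question was whether the transcripts of the pathway differ between the differently colored tissues.

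PAL removes ammonia from phenylalanine to give cinnamic acid, and some grass enzymes also accept tyrosine, which gives p-coumaric acid directly. C4H, a cytochrome P450 of the CYP73A family, hydroxylates cinnamic acid to p-coumaric acid. 4CL joins p-coumaric acid to coenzyme A, and the product is shared by the lignin and the flavonoid branch. In a young bamboo internode the pathway is known above all for supplying lignin to hardening cell walls, while the flavonoid branch starts with chalcone synthase. The study annotates the 3 PAL unigenes as phenylalanine/tyrosine ammonia-lyase, C4H as trans-cinnamate 4-monooxygenase and 4CL as 4-coumarate-CoA ligase. An annotation of all unigenes was not used here, so other unigenes of the same enzymes were not counted.

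The authors deposited estimated counts of reads per unigene, without normalization. Total counts lay between 18875469 and 22505338 in the culm libraries and between 16405396 and 19434666 in the sulcus libraries, so that 1 count stood for between 0.0444 and 0.0610 CPM (the count over the total count of the library, times 1000000). Same-numbered culm and sulcus libraries deviated from their tissue means together. The levels of 12 photosynthesis and antenna unigenes, which the study picked on these libraries, were summed. The sum was 1043, 1382 and 2398 CPM in culm replicates 1 to 3 and 5919, 4985 and 2962.5 CPM in sulcus replicates 1 to 3. Of the 12, 11 were lower in the culm in each of the 3 pairs, and the share of all unigenes with this pattern is not given here. The part of these 12 in the differences described here was not tested. In bulk tissue, fewer cells of a type and less RNA per cell cannot be told apart.

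PvPAL1 took more reads than any other unigene in all 6 libraries. Its level was 15850, 22819 and 22454 CPM in culm replicates 1, 2 and 3, against 19932, 19492 and 28302 CPM in sulcus replicates 1, 2 and 3. The tissues overlapped, with the lowest value in culm replicate 1 and the highest in sulcus replicate 3. The next unigene outside the PAL group was Cluster-4806.23638 in each library, and PvPAL1 had between 1.41 and 2.48 times its reads in culm and between 1.31 and 2.92 times in sulcus. These are comparisons of reads, not scaled by the length of the unigenes.

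PvPAL2 ranked between 7 and 9 by reads. It had 2693, 4017 and 3842 CPM in culm replicates 1 to 3, against 3494, 3505 and 5517 CPM in sulcus replicates 1 to 3. PvPAL3 ranked between 75 and 262, with 371, 802 and 464 CPM in culm and 571, 762 and 865 CPM in sulcus. For both unigenes culm replicate 1 was again the lowest library and sulcus replicate 3 the highest.

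C4H and 4CL lay far lower in the order. C4H ranked between 13814 and 34916 and 4CL between 16328 and 30508. The counts of C4H were 193, 25 and 15 in culm replicates 1 to 3 and 14, 16 and 6 in sulcus replicates 1 to 3. This gives 10.2, 1.25 and 0.667 CPM in culm and 0.853, 0.823 and 0.324 CPM in sulcus. Culm replicate 1 stood above the other 5 libraries, and its exact (Clopper-Pearson) 95% interval of 8.83 to 11.8 CPM did not touch those of the others. The value of culm replicate 3 lay within the range of the sulcus values, while its interval of 0.373 to 1.10 CPM reached above them. The intervals cover counting error only.

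4CL had counts of 126, 27 and 50 in culm replicates 1 to 3 and of 17, 12 and 25 in sulcus replicates 1 to 3. The levels were 6.68, 1.354 and 2.22 CPM in culm and 1.04, 0.617 and 1.351 CPM in sulcus. Every culm library lay above every sulcus library, but culm replicate 2 and sulcus replicate 3 were nearly equal. Among the 31936 unigenes with enough counts to be tested, the tissues did not overlap, with the culm higher, for 2.46%.

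**Figure D1:**
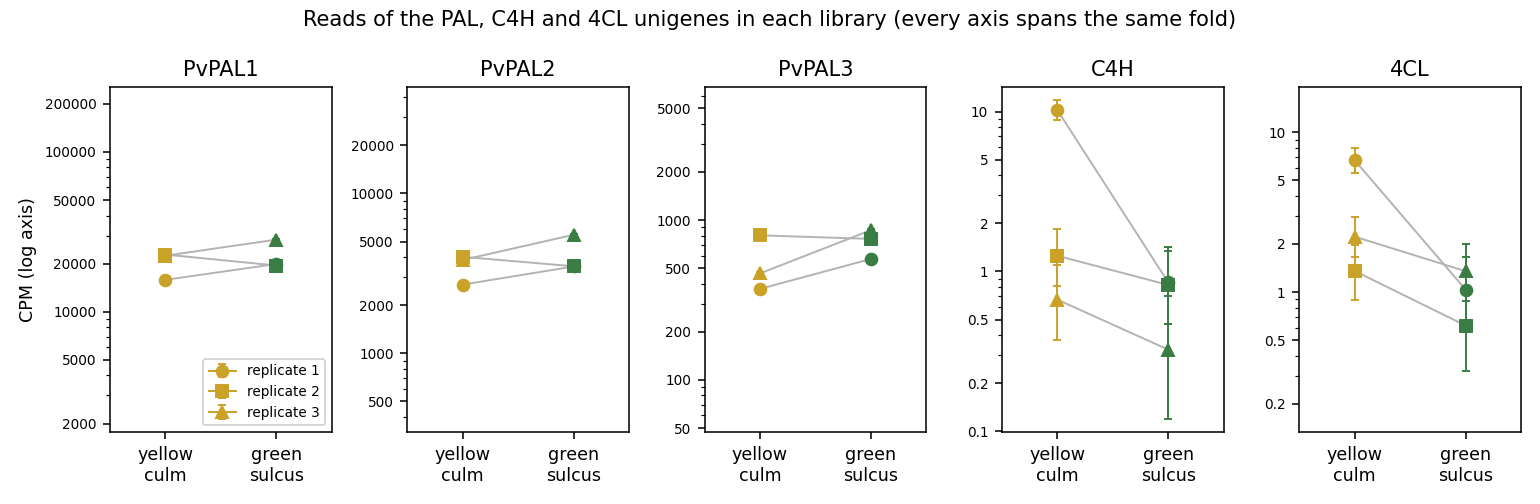
CPM of the 5 unigenes on log axes that all span the same fold, with culm left of sulcus and gray lines joining libraries with the same replicate number (circles, squares and triangles for replicates 1, 2 and 3). Bars are exact 95% intervals for counting error, and the PAL unigenes vary at most 2.33-fold over the libraries while C4H and 4CL reach 10.2 and 6.68 CPM in culm replicate 1.

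Culm replicate 1 was thus at the end of the order for all 5 unigenes, as the lowest library for the 3 PAL unigenes and as the highest for C4H and 4CL. Over all tested unigenes it was the lowest of the 6 libraries for 19.4% and the highest for 21.4%. It held 71.7% of all C4H counts of the 6 libraries and 49.03% of those of 4CL, but 12.02% of those of PvPAL1. Without it, the culm mean of C4H was 0.960 CPM against 0.667 CPM in sulcus, a ratio of 1.44 in place of 6.07. For 4CL the culm mean without it was 1.79 CPM against 1.001 CPM in sulcus, a ratio of 1.79 in place of 3.41. With sulcus replicate 1 left out as well, the ratios were 1.67 for C4H and 1.82 for 4CL.

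The 3 PAL unigenes together took 1.89%, 2.76% and 2.68% of all counts in culm replicates 1 to 3, against 2.40%, 2.38% and 3.47% in sulcus replicates 1 to 3. In culm replicate 1, the lowest library, 1 of 52.9 counts came from PAL, against 1 of 28.8 in sulcus replicate 3, the highest. The mean share was 2.44% ± 0.480 in culm and 2.75% ± 0.624 in sulcus (SD, n = 3 each). The difference of −0.30 percentage points was smaller than either SD (exact two-sided permutation test, p = 0.6, where 3 libraries against 3 cannot give less than 0.1). Within same-numbered pairs the culm was lower by 0.508 and 0.792 percentage points in pairs 1 and 3 and higher by 0.388 in pair 2. Without sulcus replicate 3, but with culm replicate 3 kept, the difference turned to 0.0559 percentage points. The share was not computed without a whole pair.

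**Figure D2:**
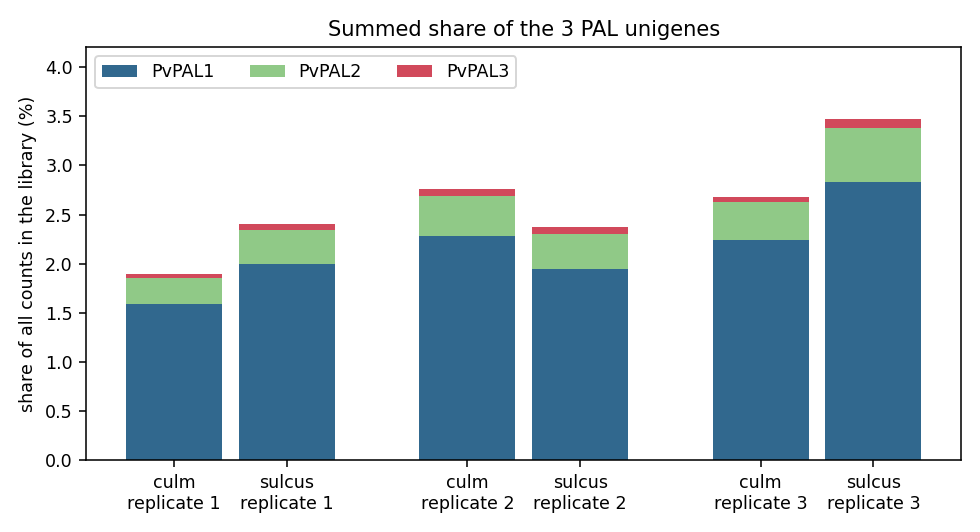
Share of all counts taken by PvPAL1, PvPAL2 and PvPAL3 (stacked bars, in percent of the library) for each library, with the culm left of the sulcus of the same replicate number. The summed share lies between 1.89% in culm replicate 1 and 3.47% in sulcus replicate 3, and the culm bar is the lower of the pair for replicates 1 and 3 and the higher for replicate 2.

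The PAL unigenes differed in how closely they followed each other. The reads of PvPAL2 were 17.0%, 17.6% and 17.1% of those of PvPAL1 in culm replicates 1 to 3 and 17.5%, 17.98% and 19.5% in sulcus replicates 1 to 3. This ratio varied 1.15-fold over the 6 libraries, while PvPAL1 itself varied 1.79-fold. The reads of PvPAL3 were 2.34%, 3.52% and 2.07% of those of PvPAL1 in culm and 2.86%, 3.91% and 3.06% in sulcus, a 1.89-fold range. Set against PvPAL2, the reads of PvPAL3 were 13.8%, 19.97% and 12.1% in culm and 16.3%, 21.7% and 15.7% in sulcus, so that replicate 2 was the highest library of each tissue. PvPAL1 alone made up 83.8%, 82.6% and 83.9% of all PAL reads in culm and 83.1%, 82.0% and 81.6% in sulcus. A ratio within a library does not depend on the scaling between libraries, and its change between libraries does not depend on unigene length.

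Relative to PvPAL1, both other copies were lower in the culm in every same-numbered pair. How many other unigenes were lower relative to PvPAL1 in every pair was not counted. For PvPAL3 the log2 ratio differed by −0.29, −0.15 and −0.57 in pairs 1, 2 and 3, with a mean of −0.34, and for PvPAL2 by −0.045, −0.031 and −0.19, with a mean of −0.088. Exact two-sided permutation tests between the tissues gave p = 0.3 for PvPAL3 to PvPAL1, 0.2 for PvPAL2 to PvPAL1 and 0.4 for PvPAL3 to PvPAL2 (each 0.4 after adjustment over the 3 ratios), so none of these differences passed a test that cannot give less than 0.1. These tests leave the replicate numbers out. Exact two-sided sign flips within the same-numbered pairs gave p = 0.25 for each of the 3 ratios, the smallest they allow. The ratio of PvPAL3 to PvPAL1 was highest in replicate 2 of both tissues, and 64.5% of its sum of squares on the log2 scale lay between replicate numbers. For PvPAL2 to PvPAL1, the share between replicate numbers was 25.9% and that between tissues 44.9%.

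All 18 deposited values of the PAL unigenes carried fractions, as can happen when reads are divided among similar unigenes, and all 12 values of C4H and 4CL were whole, where a value counted as whole only if every deposited decimal was 0. Of the 1922 unigenes with a mean of at least 100 CPM, 33.1% carried fractions in all 6 libraries, against 4.46% of all unigenes. Between 10.7% and 12.5% of the values of a library were not whole, so whole values are usual and do not set C4H and 4CL apart. How far shared reads set the ratios between the PAL copies was not tested, and the level of each single copy is uncertain to that extent.

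C4H and 4CL were compared with each other and with PAL in the same way. Per 1000000 PAL reads there were 353, 49.01 and 83.0 reads of 4CL in culm replicates 1 to 3, against 43.2, 25.99 and 38.9 in sulcus replicates 1 to 3. The mean log2 ratio was 1.68 higher in culm, in 3 of 3 pairs, and the tissues did not overlap (exact two-sided permutation test, p = 0.1, the smallest possible, and 0.3 adjusted over the 3 ratios). The lowest culm and the highest sulcus value, 49.01 and 43.2, rest on 27 and 17 reads of 4CL. How many other unigenes separate the tissues relative to PAL was not counted. Without culm replicate 1 the difference was 0.86. For C4H there were 541, 45.4 and 24.9 reads per 1000000 PAL reads in culm and 35.6, 34.7 and 9.35 in sulcus, a log2 difference of 1.91 that was positive in 3 of 3 pairs (exact permutation p = 0.4, 0.6 adjusted) and 0.57 without culm replicate 1. The values without culm replicate 1 keep sulcus replicate 1. In order of replicate number, the differences within pairs were 3.03, 0.92 and 1.09 for 4CL and 3.93, 0.39 and 1.41 for C4H.

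The ratio of C4H to 4CL reads varied more between replicate numbers than between tissues. It was 1.53, 0.926 and 0.30 in culm replicates 1 to 3 and 0.824, 1.33 and 0.24 in sulcus replicates 1 to 3. Of its sum of squares on the log2 scale, 90.5% was found between replicate numbers and 1.28% between tissues. The low values of replicate 3 in both tissues rest on 15 and 6 reads of C4H. The difference of 0.23 between the tissue means (exact two-sided permutation test, p = 0.7) turned to −0.28 without culm replicate 1 and to −0.48 without sulcus replicate 3. In both cases the library of the same number was kept. In order of replicate number, the differences within pairs were 0.90, −0.53 and 0.32.

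**Figure D3:**
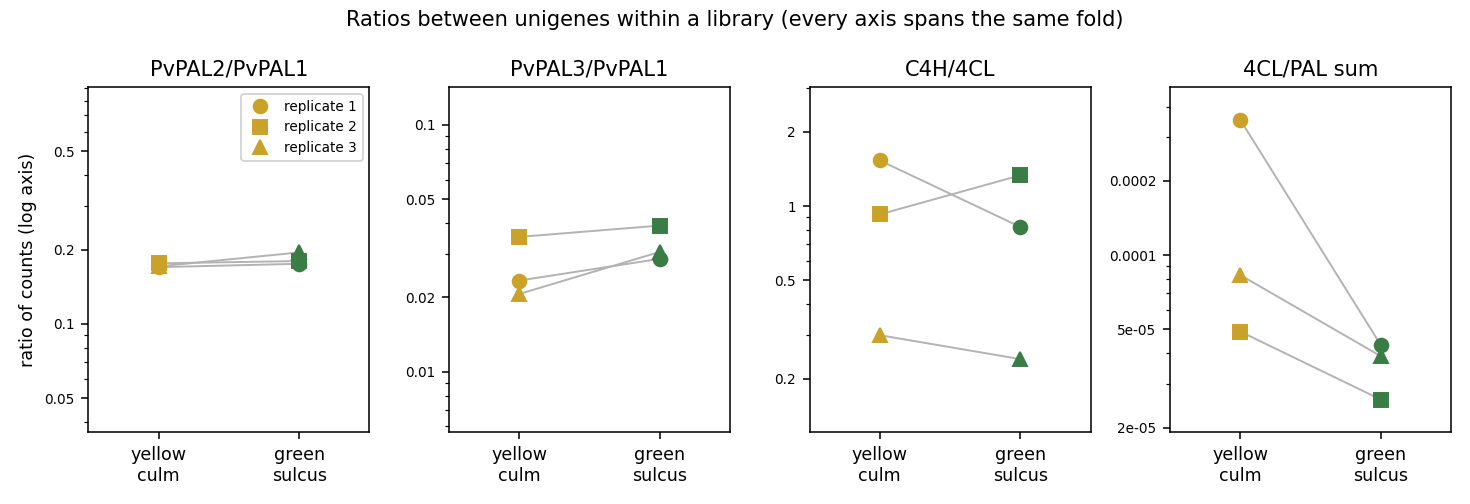
Ratios of counts between unigenes within a library, on log axes that span the same fold, with culm left of sulcus and gray lines joining same-numbered libraries. PvPAL2/PvPAL1 stays between 0.170 and 0.195, PvPAL3/PvPAL1 is lower in the culm than in the sulcus of each pair, C4H/4CL is lowest in replicate 3 of both tissues, and 4CL relative to the PAL sum is higher in each culm library than in any sulcus library.

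Over all unigenes, the culm was set against the sulcus with the quasi-likelihood test of edgeR, and a unigene was called at a Benjamini-Hochberg adjusted p under 0.05 with a log2 fold change beyond 1. EdgeR called 0 of the 5, as it called 0% of all 31936 tested. DESeq2 called 0.0877% and limma voom 0% of all tested, and DESeq2 blocked on the replicate number 0.294%, in each case with 0 of the 5 among them. At an unadjusted p under 0.05 edgeR had 1 of the 5, 4CL, against 1.38% of all tested (0.852% higher in the culm and 0.526% lower). DESeq2 had C4H and 4CL at that p, against 1.39%, and limma voom 0 of the 5, against 1.38%. When the replicate number entered edgeR as a block, 0 of the 5 and 0.128% of all tested were called (0.0689% higher and 0.0595% lower). Of the 5, 3 then had an unadjusted p under 0.05, against 7.82% of all tested. These were C4H and 4CL, higher in the culm, and PvPAL3, lower in the culm, where 5.18% of all tested were higher and 2.65% lower at that p.

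The log2 fold change of C4H, culm over sulcus, was 2.59 ± 1.09 (SE) in edgeR, with an unadjusted p of 0.0519 and an adjusted p of 0.99997. The replicate block gave 2.05 ± 0.56, with an unadjusted p of 0.00543 and an adjusted p of 0.327 in edgeR, and limma voom without the block gave 1.65. It was 11.98-fold, 1.52-fold and 2.06-fold higher in culm in pairs 1, 2 and 3. In pair 1, 73 of all tested unigenes had a larger log2 difference. Without culm replicate 1 the log2 fold change was 0.54 ± 0.61, and with the block and without pair 1 it was 0.80 ± 0.57.

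That of 4CL was 1.76 ± 0.66 (SE) in edgeR, with an unadjusted p of 0.0338 and an adjusted p of 0.99997. The block gave 1.55 ± 0.40, with an unadjusted p of 0.00424 and an adjusted p of 0.298 in edgeR. The pairs were 6.44-fold, 2.19-fold and 1.64-fold higher in culm, and 165 unigenes had a larger log2 difference in pair 1. It was 0.83 ± 0.47 without culm replicate 1, and 0.90 ± 0.44 with the block and without pair 1. C4H and 4CL were 2 of the 15.9% of tested unigenes that were higher in the culm in all 3 pairs. An exact two-sided permutation test of the log2 CPM gave p = 0.3 for C4H and 0.1 for 4CL, where 0.1 is the smallest possible.

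The PAL unigenes had small differences of the other sign. PvPAL1 averaged 20374 ± 3923 CPM in culm and 22575 ± 4964 CPM in sulcus (SD, n = 3 each), a log2 difference of −0.14 ± 0.52 (SE) in edgeR. PvPAL2 averaged 3517 ± 719.6 CPM in culm and 4172 ± 1165 CPM in sulcus, a log2 difference of −0.24 ± 0.36. PvPAL3 averaged 545.7 ± 227.1 CPM in culm and 733 ± 149 CPM in sulcus, a log2 difference of −0.40 ± 0.36. The adjusted p of all 3 was 0.99997 in edgeR. The block gave −0.48 ± 0.20 for PvPAL3, with an unadjusted p of 0.0399 and an adjusted p of 0.604 in edgeR. Exact two-sided permutation tests gave p = 0.6, 0.6 and 0.3 for PvPAL1, PvPAL2 and PvPAL3.

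In each of the 3 PAL unigenes the culm was lower in pairs 1 and 3 and higher in pair 2, a pattern of signs that 8.55% of all tested unigenes had. The culm to sulcus folds were 0.795, 1.17 and 0.793 in pairs 1 to 3 for PvPAL1, 0.771, 1.15 and 0.696 for PvPAL2, and 0.650, 1.05 and 0.536 for PvPAL3. In every pair the fold was lowest for PvPAL3 and highest for PvPAL1, which restates the ratios between the copies given above. In the unpaired fits that leave out 1 library, the log2 difference of PvPAL1 turned to 0.015 without culm replicate 1 and to 0.042 without sulcus replicate 3, and that of PvPAL2 to 0.0021 without sulcus replicate 3. In the blocked fits that leave out a whole pair, both kept their sign, at −0.035, −0.38 and −0.030 for PvPAL1 and −0.14, −0.49 and −0.068 for PvPAL2 without pairs 1, 2 and 3. That of PvPAL3 was negative with any 1 library left out, between −0.86 and −0.18, and with any pair left out under the block.

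**Figure D4:**
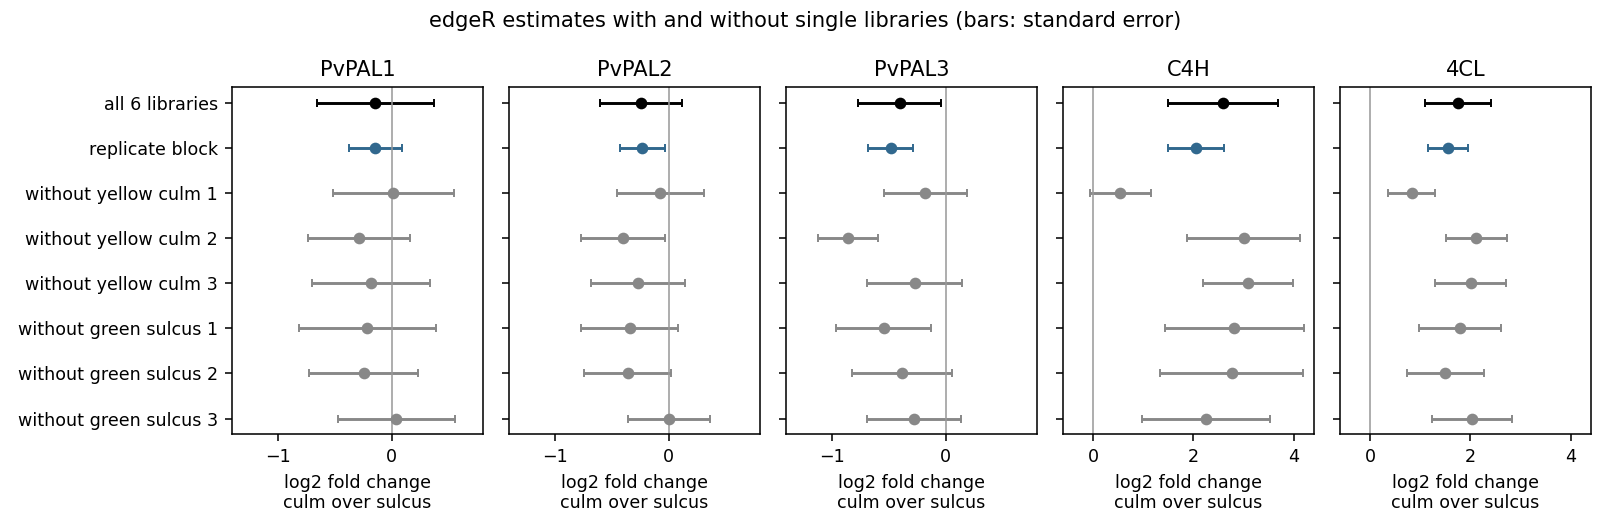
Log2 fold changes of the culm over the sulcus from edgeR for the 5 unigenes, with all libraries, with the replicate block and with each library left out (points, with bars of 1 standard error). C4H and 4CL lie above 0 in every row and drop to 0.54 and 0.83 without culm replicate 1, while PvPAL1 and PvPAL2 cross 0 in some rows.

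The replicate number carried a large part of the variation (sum of squares) of most of the 5 unigenes. For log2 CPM, 65.1%, 60.3%, 49.6% and 49.97% was found between replicate numbers for PvPAL1, PvPAL2, PvPAL3 and C4H, and 8.16%, 14.4%, 29.2% and 31.8% between tissues. 4CL had the larger part between tissues, 49.9%, against 34.3% between the numbers. There are more replicate numbers than tissues, so values without any structure would also give the numbers the larger share on average. This holds for the shares of the ratios above as well. The medians over all tested unigenes were 71.9% between replicate numbers and 5.78% between tissues.

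The unigenes with the most similar profiles were sought by the root mean square difference of log2 CPM over the 6 libraries, after the mean of each unigene was subtracted. Of all 31935 other tested unigenes, PvPAL1 was the nearest to PvPAL2, at 0.066, and PvPAL2 was at place 3 from PvPAL1, behind Cluster-4806.5790 (0.055) and Cluster-12208.0 (0.060). After PvPAL1, Cluster-4806.12540 (0.080) and Cluster-4806.31300 (0.084) followed for PvPAL2. PvPAL3 was less near to both, at place 4386 from PvPAL2 and at place 8766 from PvPAL1. Seen from PvPAL3, PvPAL2 was at place 430 and PvPAL1 at place 729, so that 1.34% and 2.28% of the other unigenes were nearer to it. Its nearest were Cluster-4806.24118 (0.042), Cluster-4806.23352 (0.068) and Cluster-4806.23850 (0.099), none of which is in the study's table of descriptions. Cluster-4806.24118 had 99.8, 232 and 124.5 CPM in culm replicates 1 to 3 and 161, 211 and 230.4 CPM in sulcus replicates 1 to 3, the same order of libraries as PvPAL3 but for the top 2.

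For 4CL the nearest was Cluster-4806.19433 (0.245), with 15.9, 3.36 and 3.78 CPM in culm and 3.11, 1.49 and 3.51 CPM in sulcus. The following 2, Cluster-4806.3607 (0.326) and Cluster-4806.17597 (0.346), are both described by their match to the transcription factor MYB108, a protein of the MYB family. Cluster-4806.17597 had 11.1, 3.55 and 4.89 CPM in culm and 2.55, 2.06 and 4.54 CPM in sulcus. For C4H the nearest were Cluster-12900.1 (0.402), Cluster-4806.2906 (0.415) and Cluster-4806.22158 (0.421), the last a hypothetical protein of rice by its match. 4CL was at place 487 from C4H, and C4H at place 7734 from 4CL. The descriptions of these neighbors come from a table of unigenes that the study selected on these libraries, and unigenes outside it were not looked up. With 6 libraries and this many unigenes, close profiles are a description only.

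Of 14 further unigenes that the study sets in the pathway, 13 had enough counts to be tested, and edgeR called 0 of them higher and 0 lower, with and without the replicate block. At an unadjusted p under 0.05 edgeR had 0 of the 13 without the block, against 1.38% of all tested, and with it 1 of the 13, CCR (cinnamoyl-CoA reductase), a share near the 7.82% of all tested. Their median log2 fold change was −0.078, against 0.0059 over all tested unigenes, with 5 higher and 8 lower. PvGL, PvUF7GT and PvC12RT1, which the study chose on these libraries, are among them. The paper describes their expression as more prominent in the culm, with fold changes from its own fit, and reports qRT-PCR in the same direction. That assay was not examined here. Here the log2 fold change in edgeR was −0.16 ± 0.37 (SE) for PvGL, −0.32 ± 0.45 for PvC12RT1 and 0.12 ± 0.67 for PvUF7GT. In every same-numbered pair PvGL and PvC12RT1 were lower in the culm and PvUF7GT was higher. Of all tested unigenes, 15.9% were higher in the culm in every pair, and the share lower in every pair is not given here. Why the direction of PvGL and PvC12RT1 differs from the paper was not tested. PvCHS (chalcone synthase), which uses the product of 4CL in the flavonoid branch, had 299, 226 and 271 CPM in culm replicates 1 to 3 and 171, 200.1 and 275 CPM in sulcus replicates 1 to 3, with overlap. PvCHI1 was also highest in culm replicate 1, with 70.6, 27.9 and 10.2 CPM in culm and 12.4, 16.5 and 13.8 CPM in sulcus. Its log2 difference of 1.36 ± 0.64 (SE), with an adjusted p of 0.99997 in edgeR, was the highest of the 13. The other chalcone isomerase unigene, PvCHI2, was not highest there, with 809, 1063 and 778 CPM in culm and 830, 1042 and 948 CPM in sulcus. Culm replicate 1 was the highest library for 21.4% of all tested unigenes.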

How the data were processed

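Reads from 6 libraries had been assembled with Trinity and grouped into unigenes with Corset by the authors, who deposited estimated counts per unigene without normalization; the sources used here do not name the counting tool, and the submitters' processing notes name DESeq. No genome was used, so coordinates and sequences are not given. After rounding to whole numbers, they were fitted in R 4.3.3 by DESeq2 1.42.0, edgeR 4.0.16 and limma 3.58.1. TMM factors lay between 0.949 and 1.05, and filterByExpr with a minimum count of 10 kept 31936 unigenes. The p-values of each fit across unigenes were adjusted over all unigenes it tested by the Benjamini-Hochberg method, and those of ratios over the 3 ratios of a family. Permutation tests of the PAL share and of single unigenes were not adjusted. The standard error is the log2 fold change divided by the square root of F. CPM used the column sum, with 0.01 added before logarithms; ratios used the deposited values. Ratios and shares were tested by exact permutation over the 20 labelings. Unigene lengths were not used. The p-values of fits without the block and of permutation tests measure the spread between these libraries. Those with the replicate block and from sign flips measure the spread left within same-numbered pairs.

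After the tissue mean of each unigene was subtracted, culm and sulcus libraries of the same number correlated over unigenes at 0.682, 0.587 and 0.777 (replicates 1 to 3), against −0.613 to −0.039 where the numbers differed. Deviations from a tissue mean cancel out within the tissue, so positive values for the same number force negative values elsewhere on average. That the numbers pair the libraries by their values thus rests on the positive values alone. The tests given first are nonetheless unpaired, and fits with the replicate block and exact sign flips within pairs were alternatives. Unigenes named are the 5 themselves, the pathway list where a result turns on one, and the 3 nearest profiles of each. These members and lists were chosen with earlier results of these data known. Alternatives were RLE factors, TMM without PAL, other filters, DESeq2, limma voom, the block, other pseudocounts and denominators, and leaving out each library; leaving out a pair under the block was added after the data were seen.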

Additional observations from a re-analysis of the deposited data

How the results depend on the processing

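No alternative called any of the 5 unigenes, and the smallest adjusted p over the alternatives was 0.140 for 4CL, 0.161 for C4H, 0.331 for PvPAL3, 0.547 for PvPAL2 and 0.657 for PvPAL1 (edgeR, DESeq2 or limma). C4H and 4CL could not be tested with a minimum count of 30. Leaving out 1 library changed the direction of PvPAL1 (range of the log2 fold change −0.29 to 0.042), PvPAL2 (−0.40 to 0.0021), the summed PAL share (−0.49 to 0.056 percentage points), the log2 ratio of C4H to 4CL (−0.48 to 0.89) and the median of the pathway unigenes tested (−0.17 to 0.17, positive without culm replicate 1 or, at 0.0078, sulcus replicate 2). It left the direction of C4H (0.54 to 3.09), 4CL (0.83 to 2.12) and PvPAL3. The library of the same number was kept each time, and the PAL share and the ratios were not computed without a whole pair. TMM scaling moved the share of PvPAL1 between replicate numbers to 53.8%.

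Over all unigenes, edgeR called 0 higher and 0 lower, and 2 lower without a filter. DESeq2 called 10 higher and 18 lower. The paper, at the same thresholds, reports more differentially expressed genes than this fit. With the replicate block, edgeR called 22 higher and 19 lower and DESeq2 63 and 31. With the block and without pair 1, 2 or 3, edgeR called 57, 1 and 63 higher and 55, 4 and 37 lower. The block changed no call of the 5 unigenes. Exact two-sided sign flips within the 3 pairs, which cannot give a p under 0.25, gave 0.5 for the PAL share, 0.75 for C4H to 4CL and 0.25 for each other ratio. The cause of these shifts was not tested. Counts of 6 to 193 reads limit the precision of C4H and 4CL.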
